A study of Mus musculus with 58 samples.

Results

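The core pluripotency transcription factors are 9 genes taken by symbol: Pou5f1, Sox2, Nanog, Esrrb, Tfcp2l1, Tbx3, Sall4, Prdm14 and Zfp42. They are 9 of the 24077 genes in the count table, and all 9 have a row in it. The RNA libraries come from a mouse study of oocytes and embryos that lack PCGF1 and PCGF6, subunits of variant forms of Polycomb repressive complex 1. Fully grown oocytes (FGO) of strain B6.129 gave 2 libraries of Pcgf1/6 double knockouts (KO) and 2 of wild types (CTR). Embryos of the cross B6.129 x PWK gave 2 libraries of morulae with a Pcgf1/6 double maternal knockout (matKO) and 2 of wild-type morulae (CTR). The same cross gave 4 matKO and 2 CTR libraries of extraembryonic ectoderm (ExE), the trophoblast tissue that lies against the epiblast. In a maternal knockout the egg lacks both genes, while the father brings unchanged copies. The sources used here do not give the Cre driver or the floxed alleles, if any, nor the age of the animals or the number of oocytes or embryos in a library. The labels do not say that replicates came from separate animals, so the p-values measure the spread between these libraries, which may be technical.

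Pou5f1 (also called Oct4), Sox2 and Nanog encode a POU-domain, an HMG-box and a homeodomain protein that bind many of the same enhancers and hold the inner cell mass and embryonic stem cells in the pluripotent state. Esrrb, Tfcp2l1, Tbx3, Prdm14 and Zfp42 belong to the naive form of that state, and Sall4 binds together with Pou5f1. Some of these factors have a second life in trophoblast: Sox2 and Esrrb, with Eomes and Elf5, maintain the trophoblast stem cells of the ExE. PCGF1 sits in a variant complex that its partner KDM2B brings to unmethylated DNA rich in CG pairs, and PCGF6 in one whose partners include the DNA-binding factors MGA and E2F6.

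The promoters of the central trio show how much CG content differs among the members. The 250 bases before each annotated start are printed below from RefSeq, build GRCm38.p6, 5′ to 3′ on the plus strand, with every CG pair in capitals. Sox2 is shown because it is the 1 member called in a knockout comparison, and Pou5f1 and Nanog as its partners. The windows are chr3:34649745-34649994 for Sox2, chr17:35505782-35506031 for Pou5f1 and chr6:122707239-122707488 for Nanog.
Sox2: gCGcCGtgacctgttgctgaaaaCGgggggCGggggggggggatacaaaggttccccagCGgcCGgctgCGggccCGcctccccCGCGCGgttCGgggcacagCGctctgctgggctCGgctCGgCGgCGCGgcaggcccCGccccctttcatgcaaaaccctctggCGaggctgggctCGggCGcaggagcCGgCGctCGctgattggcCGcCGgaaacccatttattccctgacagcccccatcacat
Pou5f1: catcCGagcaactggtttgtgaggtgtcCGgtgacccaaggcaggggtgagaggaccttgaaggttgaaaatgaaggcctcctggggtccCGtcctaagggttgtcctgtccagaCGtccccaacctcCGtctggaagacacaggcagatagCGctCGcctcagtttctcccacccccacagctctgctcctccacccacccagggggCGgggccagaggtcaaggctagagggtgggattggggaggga
Nanog: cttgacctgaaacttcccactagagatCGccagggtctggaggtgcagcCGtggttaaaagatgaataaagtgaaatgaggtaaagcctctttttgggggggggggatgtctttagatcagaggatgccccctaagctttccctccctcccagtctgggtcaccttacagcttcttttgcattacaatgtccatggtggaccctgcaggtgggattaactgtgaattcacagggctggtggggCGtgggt
The Sox2 window held 27 CG pairs, and 91.4% of 32851 mouse promoter windows of that length held fewer. The Pou5f1 window held 8 and the Nanog window 3, with 57.0% and 29.0% of windows holding fewer. The median over all windows was 6, with quartiles of 2 and 16. Among the other members with an entry, Tfcp2l1 had 16 pairs, Zfp42 had 9 and Esrrb had 6 and 3 at its 2 start sites. Sall4, Prdm14 and Tbx3 had no entry.

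Short motifs were searched on both strands of the same windows. The octamer ATGCAAAT, the site of POU factors, was in 1.60% of all windows and, of the members, in that of Zfp42. CATTGT, the core of a SOX site, was in 10.7% of all windows, among them those of both Nanog start sites and the second Pou5f1 start site. CACGTG, the E-box that MGA and related factors bind, was in 6.02% of all windows and in none of the members. CATTGT and ATGCAAA with 1 base between them form the joint SOX and POU site, a motif searched with the Nanog site known. It was in 2 of 32851 windows, both of Nanog, where the plus strand reads TTTGCATTACAATG from 75 to 62 bases before the first start. These matches describe letters and not binding.

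Totals were 19805264 to 26364085 counts in FGO libraries, and each FGO count is of a whole gene. Morula and ExE columns hold maternal and paternal reads only, and their sums came to 1299715 to 1685510 reads in morulae and 3397585 to 4361832 in ExE. Levels below are in CPM, counts scaled to a common library total, so FGO levels and embryo levels are on different scales. A floor of 3 counts stood for 0.114 to 0.151 CPM in FGO, 1.78 to 2.31 CPM in morulae and 0.688 to 0.883 CPM in ExE. In oocytes Pcgf1 had 767 and 452 counts in KO oocytes, against 37080 and 28293 in CTR oocytes, and Pcgf6 had 3893 and 4352 in KO oocytes, against 10434 and 11024 in CTR oocytes. Both fell (log2 −5.56 and −1.14, adjusted p = 2.0e-05 and 0.0102, edgeR), but much Pcgf6 RNA was left in KO oocytes, and counts over whole genes do not show whether a deleted part was missing from it. Pcgf1 had at most 4 allele-assigned reads in any embryo library and checks nothing there. The maternal share of Pcgf6 reads was 46.6% and 40.9% in matKO morulae, against 62.9% and 57.5% in CTR morulae, and 26.0% to 43.9% in matKO ExE, against 65.6% and 58.1% in CTR ExE. The 12 oocyte markers summed to 15340 to 20350 CPM in FGO and to at most 103 CPM in any embryo library. Elf5, which marks ExE, had 307 to 529 CPM in ExE and at most 4.75 CPM elsewhere. It is 1 of 14 trophectoderm and ExE markers, of which 13 were tested between CTR ExE and CTR morulae. In CTR ExE 8 were called higher and 3 lower, where 27.8% and 39.7% of all genes were. Bmp4, another of the 14, was at 0 in all ExE libraries. ExE matKO replicate 3 stood apart: 35.1% of its autosomal reads were maternal, against 50.5% to 51.5% in the other embryo libraries, so results that rest on it are given without it too. The Pcgf6 share of 26.0% was from this library, and the other matKO ExE libraries had 35.5% to 43.9%.

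The members differed in the stages at which they were read. Nanog was close to the floor in oocytes and far above it in morulae, Tbx3 was low in oocytes (7 to 50 counts) and far above the floor in morulae, Sall4 and Esrrb were far above it at both stages, and Pou5f1 was read in oocytes only. In oocytes Sall4 had 137 to 181 CPM, Esrrb 83.7 to 117 CPM, Pou5f1 14.2 to 23.9 CPM and Tfcp2l1 3.11 to 6.54 CPM. Sox2 had 0.156 to 5.91 CPM and Tbx3 0.272 to 2.27 CPM. Nanog had 3 to 12 counts in an oocyte library, Prdm14 had 8 to 10 and Zfp42 had 6 to 21. In morulae Tfcp2l1 had 1036 to 1344 CPM, Sall4 409 to 545 CPM, Nanog 157 to 234 CPM, Esrrb 80.1 to 119.1 CPM and Tbx3 74.8 to 102 CPM. Sox2 had 2.31 to 13.9 CPM in morulae and 0 to 23.2 CPM in ExE. Prdm14 had at most 6 reads in a morula library and Zfp42 at most 2. Each of these ranges is for 1 gene, and levels of different genes are not set against each other, since gene lengths were not used.

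Pou5f1 was listed at 0 in all 10 morula and ExE libraries, though it marks every cell of a morula in textbook accounts. It was 1 of 7912 genes that had no allele-assigned read in any embryo library, and 4157 of these had no count in any oocyte library either. Of the 8978 genes with a mean of at least 5 CPM in oocytes, 904 were among the 7912, Pou5f1 included. No fold is given for Pou5f1 in embryos. Pou5f1 also has 7 annotated pseudogenes, Nanog 2 and Zfp42 1, none with a row of its own in the table, and the sources used here do not say how reads with several matches were counted, so these 3 counts are uncertain. Sox2 (chromosome 3, 34649995 to 34652461) lies inside the long noncoding gene Sox2ot, and the cDNA kit does not mark strand. Sox2ot had at most 5 counts in any library. On GRCm38.p6 the other members lie on chromosome 17 from 35506032 to 35510777 (Pou5f1), chromosome 6 from 122707489 to 122714633 (Nanog), chromosome 12 from 86361117 to 86521628 (Esrrb), chromosome 1 from 118627923 to 118685168 (Tfcp2l1) and chromosome 2 from 168748332 to 168767201 (Sall4). Esrrb, Tfcp2l1, Sall4 and Tbx3 overlap annotated genes that have no row in the table, and their reads cannot be told apart from those.

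**Figure D1:**
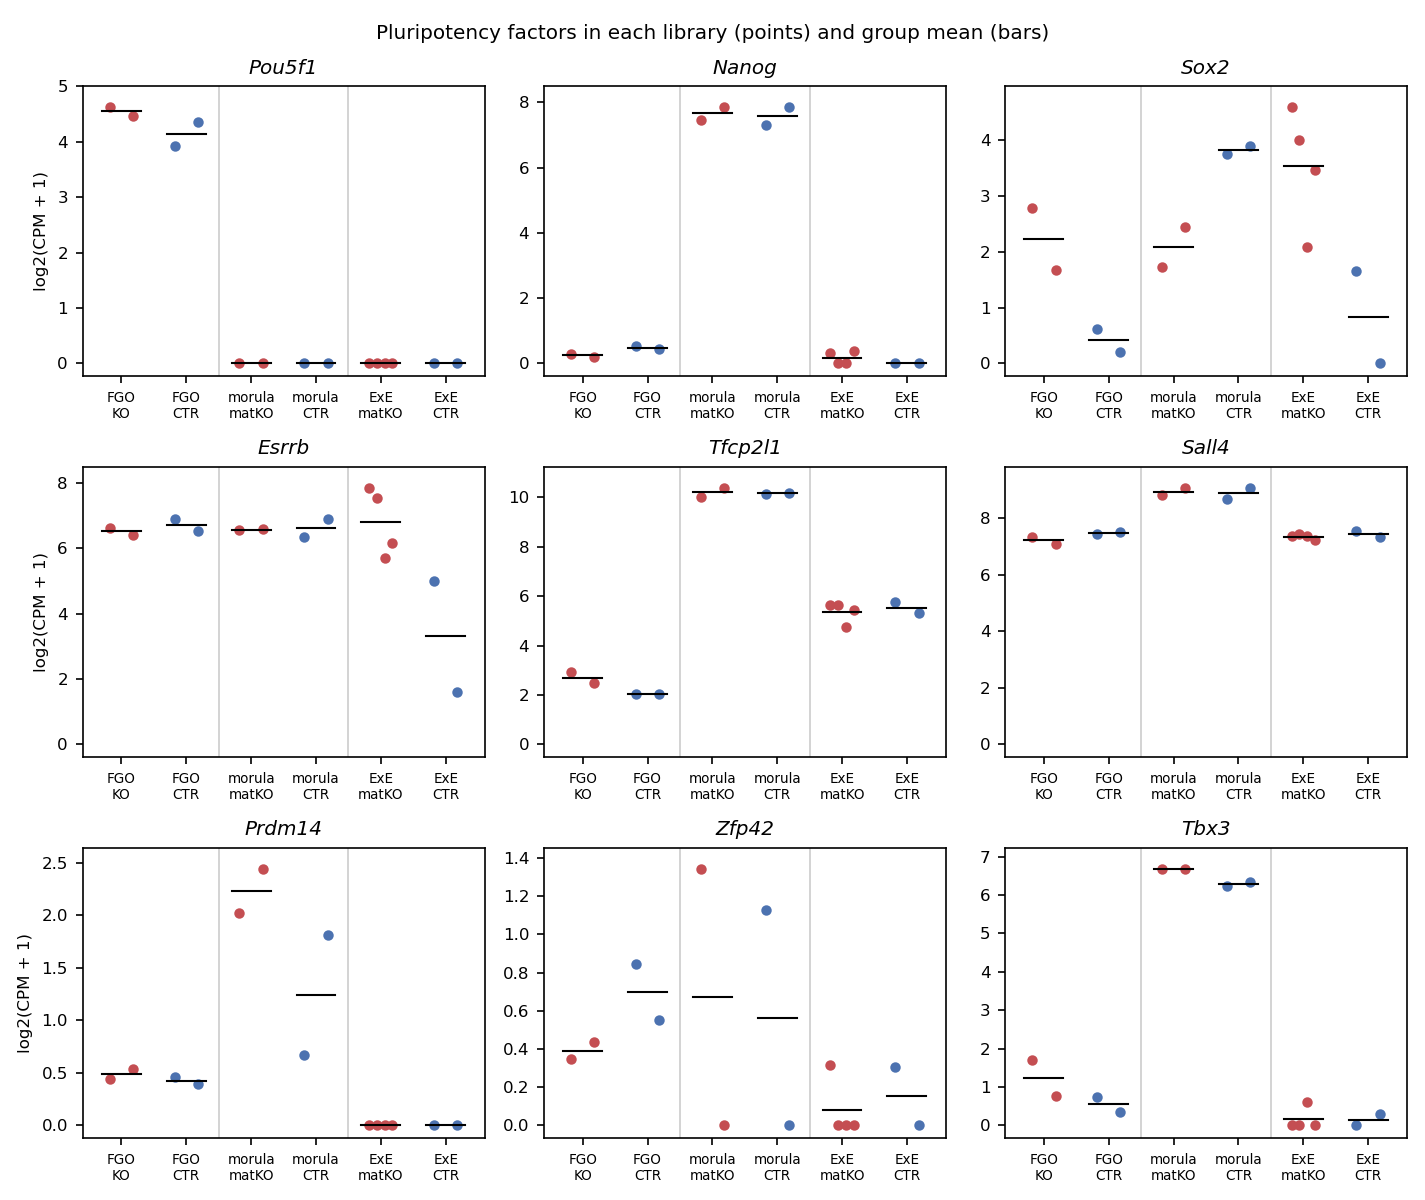
Level of each factor in every library, as log2(CPM + 1), with knockout groups in red to the left of their CTR groups in blue and a bar at each group mean. FGO values are of whole genes and embryo values of allele-assigned reads; Nanog, Tfcp2l1 and Tbx3 stand highest in the 4 morula libraries, and Pou5f1 is at 0 in all 10 embryo libraries.

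Between CTR ExE and CTR morulae, which share a scale, all 6 members with a value were lower in ExE and 5 of them were called. Genes with few reads in CTR ExE, such as Nanog, Tbx3 and Sox2, passed the filter on low counts only through the morulae. Lower values in ExE are thus favoured among the members counted here. Nanog had 0 reads in CTR ExE, against 633 in CTR morulae, at least 553-fold lower with a floor of 3 reads over the group. Tbx3, a T-box factor, had 1 read in CTR ExE, against 253 in CTR morulae, a ratio of 0.00151 (95% exact counting interval 3.8e-05 to 0.00848). These 2 factors were thus close to absent from the ExE libraries.

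Tfcp2l1, a CP2-family factor of naive cells, had 53.1 and 38.97 CPM in CTR ExE, against 1134 and 1169 CPM in CTR morulae, a log2 change of −3.98 (SE 0.18, adjusted p = 6.8e-09, edgeR's quasi-likelihood test with Benjamini-Hochberg adjustment). Sall4, a zinc finger factor, had 188 and 162 CPM in CTR ExE, against 409 and 545 CPM in CTR morulae (log2 −0.78, SE 0.18, adjusted p = 0.00185, edgeR). Sox2 had 2.13 and 0 CPM in CTR ExE, against 12.5 and 13.9 CPM in CTR morulae (log2 −2.94, SE 0.87, adjusted p = 0.0113, edgeR). In each of these genes the 2 groups did not overlap.

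Without CTR ExE replicate 2 the log2 change of Sox2 was −1.97 (adjusted p = 0.0343), and without CTR ExE replicate 1 the ExE group had 0 reads and no fold is given. Without CTR morula replicate 1 or 2 the call of Sox2 was lost (adjusted p = 0.0588 and 0.0814), and without replicate 2 that of Sall4 (log2 −0.57, adjusted p = 0.0546). Esrrb had 30.8 and 2.06 CPM in CTR ExE, against 80.1 and 119.1 CPM in CTR morulae, and was not called (log2 −1.96, SE 1.17, adjusted p = 0.227), since its 2 ExE libraries lay far apart. Without CTR ExE replicate 1 or replicate 2 Esrrb was called, at log2 −4.84 and −1.05 (adjusted p = 1.0e-07 and 0.00652). Of all 9977 genes tested, 39.7% were called lower in CTR ExE and 27.8% higher, and the groups did not overlap in 85.4%, as in all 6 members. The median of the 6 members was −3.46, also with Nanog at its bound, and that of all genes was −0.28. Members that passed the filter only through the morulae pull this median down.

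In oocytes Sox2 was the 1 member called between KO and CTR. It had 130 and 43 counts in KO oocytes, against 14 and 4 in CTR oocytes, which is 5.91 and 2.17 CPM against 0.531 and 0.156 CPM. Both KO libraries stood above both CTR libraries, and in CPM the KO libraries differed more from each other than the lower one did from the CTR libraries. The log2 change was 3.40 (SE 0.65, adjusted p = 0.0198, edgeR's quasi-likelihood test). Sox2 lost its call without KO replicate 1 (log2 2.64, adjusted p = 0.0727), the library with 130 counts, and kept it in the other leave-outs (log2 2.79 to 4.50).

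Neither partner of Sox2 was called. Pou5f1 had 23.9 and 21.1 CPM in KO oocytes, against 14.2 and 19.4 CPM in CTR oocytes (log2 0.32, SE 0.21, adjusted p = 0.445). Nanog stayed too low for a test, with 5 and 3 counts in KO oocytes, against 12 and 9 in CTR oocytes (ratio 0.475, 95% exact counting interval 0.182 to 1.12).

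Among the naive-state factors, Tfcp2l1 had 6.54 and 4.54 CPM in KO oocytes, against 3.15 and 3.11 CPM in CTR oocytes (log2 0.71, SE 0.30, adjusted p = 0.207). Tbx3 had 2.27 and 0.707 CPM in KO oocytes, against 0.683 and 0.272 CPM in CTR oocytes (log2 1.50, SE 0.67, adjusted p = 0.241). In both genes the KO libraries were the higher ones, but neither passed the test.

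Esrrb, an orphan nuclear receptor, had 98.4 and 83.7 CPM in KO oocytes, against 117 and 92.0 CPM in CTR oocytes, and the groups overlapped (log2 −0.30, SE 0.16, adjusted p = 0.316). Sall4 had 163 and 137 CPM in KO oocytes, against 174 and 181 CPM in CTR oocytes (log2 −0.35, SE 0.14, adjusted p = 0.182). Zfp42 (Rex1), a zinc finger gene used as a marker of naive cells, had 6 and 7 counts in KO oocytes, against 21 and 12 in CTR oocytes (log2 −1.10, SE 0.63, adjusted p = 0.364). Prdm14, a PR-domain factor needed for germ cells, had 8 and 9 counts in KO oocytes, against 10 and 8 in CTR oocytes, too few for the test.

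Thus 7 of 9 members passed the filter on low counts in oocytes, 1 was called higher and 0 lower. Sox2 and Tbx3 passed only through their KO libraries and Zfp42 only through its CTR libraries, so the filter favoured their directions. Of all 13459 genes tested, 5.35% were called higher and 1.87% lower. The groups did not overlap in 6 of the 7 members, 4 higher and 2 lower in KO, where 50.2% of all genes did not overlap, so that share says little. The median log2 change of the 7 was 0.32, against 0.0039 over all genes. In edgeR 3 of the 7 had an unadjusted p under 0.05, as did 2897 of all 13459 genes. Of 12 granulosa markers, genes of the somatic cells around the oocyte, 8 were tested, 1 was called higher in KO and 0 lower, with a median of 0.11. Their sum was 51.5 to 54.3 CPM in KO oocytes, against 57.4 to 67.1 CPM in CTR oocytes, most of it Cyp19a1.

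Some markers of embryonic lineages were called beside Sox2 in oocytes, where 5.35% of all genes were called higher and 1.87% lower. The filter on low counts favours rises of genes near silent in CTR. The 10 epiblast markers summed to 19.7 and 11.4 CPM in KO oocytes, against 7.70 and 7.31 CPM in CTR oocytes. Their median was at most 0.101 CPM in any oocyte library, so the sum rests on a few genes. Of these markers 2 of 4 tested were called higher and 0 lower. The 14 trophectoderm and ExE markers summed to 151 and 105 CPM in KO oocytes, against 91.3 and 107 CPM in CTR oocytes. Of 9 tested among them 3 were called higher and 1 lower, with a median of 0.99. Without overlap 6 were higher and 1 lower, where 50.2% of all genes did not overlap. Cdx2 and Hand1 were at 0 in all 4 libraries. The 11 primitive endoderm markers summed to 709 and 491 CPM in KO oocytes, against 434 and 442 CPM in CTR oocytes. Of 8 tested 1 was called higher and 0 lower, with 4 positive and 4 negative differences. KO replicate 1, the library with the most Sox2, had the highest of the 4 sums in each of these 3 lists. Of 10 visceral endoderm markers 5 were tested, with 0 called and a median of −0.51. The part of these markers in the Sox2 values was not tested.

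In morulae Sox2 leaned the other way. It had 3 and 6 reads in matKO morulae, against 21 and 22 in CTR morulae, or 2.31 and 4.45 CPM against 12.5 and 13.9 CPM. Both matKO libraries lay below both CTR libraries, and 1 of them was at the floor of 3 reads. The log2 difference was −1.89 (SE 0.62, unadjusted p = 0.0171), which did not pass the adjustment over all genes (adjusted p = 0.166, edgeR), and over the leave-outs it was −2.43 to −1.51. In bulk libraries fewer cells with a transcript and less of it per cell cannot be told apart.

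No other member passed the test in morulae. Nanog had 175 and 234 CPM in matKO morulae, against 157 and 232 CPM in CTR morulae (log2 0.11, SE 0.22, adjusted p = 0.814). Tfcp2l1 had 1036 and 1344 CPM in matKO morulae, against 1134 and 1169 CPM in CTR morulae (log2 0.09, SE 0.12, adjusted p = 0.737). Sall4 had 449 and 542 CPM in matKO morulae, against 409 and 545 CPM in CTR morulae (log2 0.09, SE 0.16, adjusted p = 0.785).

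The spread of these estimates allows moderate differences in either direction, and for these 3 genes the direction turned in some leave-outs. Esrrb had 92.3 and 95.7 CPM in matKO morulae, against 80.1 and 119.1 CPM in CTR morulae (log2 −0.04, SE 0.23, adjusted p = 0.942). Tbx3 had 102.3 and 101.6 CPM in matKO morulae, against 74.8 and 80.0 CPM in CTR morulae, without overlap (log2 0.44, SE 0.18, adjusted p = 0.233). Prdm14 had 4 and 6 reads in matKO morulae, against 1 and 4 in CTR morulae, and Zfp42 had 2 and 0 reads in each group.

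Of the 6 members with a value in morulae, 0 were called by edgeR. DESeq2 also called 0 and gave no adjusted p for Sox2. In edgeR 2 of them, Sox2 and Tbx3, had an unadjusted p under 0.05. Few genes of any kind were called at this stage: 0.0221% of 9063 genes higher and 0.11% lower. The groups did not overlap in 2 of the 6 members, against 53.1% of all genes. Their median was 0.09, against −0.02 over all genes. Of markers of trophectoderm, the outer layer that starts to form at this stage, 0 of 10 tested were called, and the 14 genes summed to 1468 to 1652 CPM in matKO morulae, against 2144 to 2311 CPM in CTR morulae, with Bmp4 at 0 in matKO. The 10 epiblast markers summed to 117 to 139 CPM in matKO morulae, against 186 to 198 CPM in CTR morulae, with Tdgf1 and Cer1 at 0 in both. Their median was at most 0.77 CPM in any morula library, so the sum rests on a few genes. The part of both lists of markers in the Sox2 values was not tested.

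**Figure D2:**
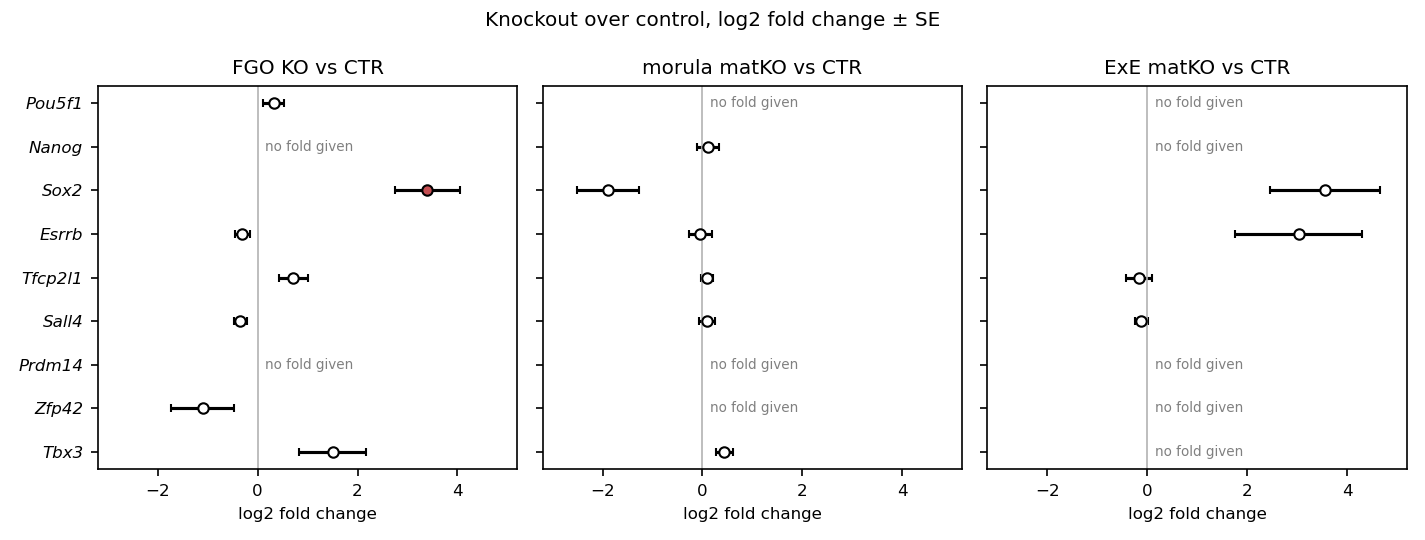
Knockout over CTR as log2 fold change with its SE for each factor at the 3 stages; filled points passed an adjusted p of 0.05, and "no fold given" marks genes with too few counts. Sox2 in oocytes (3.40) is the one filled point, and Sox2 stands at −1.89 in morulae and 3.56 in ExE.

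The opposite signs of Sox2 were tested directly, as the effect in morulae minus the effect in oocytes. The difference was −5.30 on the log2 scale (SE 0.96, adjusted p = 0.0118, edgeR's quasi-likelihood test over 14719 genes). The pattern was known from earlier results of these data before this test was chosen, so the test is no independent support for it. The stages also differ in which copies were targeted, since the oocytes are labelled as knockouts themselves and the morulae carried paternal copies. The call was lost without CTR oocyte replicate 2 (−4.63, adjusted p = 0.0792), without KO oocyte replicate 1 (−4.47, adjusted p = 0.0799) and without matKO morula replicate 1 (−4.90, adjusted p = 0.0578). It held in the other 5 leave-outs, which gave −6.34 to −5.19.

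Of the 7 members with a value in this test, Sox2 was the 1 called lower, and 0 were called higher. Over all genes 2.24% were called lower and 0.38% higher. The other 6 were not called: Nanog had a difference of 1.25 (SE 0.62, adjusted p = 0.359), Tfcp2l1 one of −0.64 (SE 0.26, adjusted p = 0.249) and Tbx3 one of −1.08 (SE 0.62, adjusted p = 0.443). Sall4, Esrrb and Prdm14 had differences of 0.43, 0.25 and 1.17, with adjusted p from 0.44 to 0.792.

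In ExE both members that also work in trophoblast stem cells stood higher in matKO, but the spread was wide. Sox2 had 95, 60, 12 and 34 reads in matKO ExE, against 9 and 0 in CTR ExE, or 23.2, 14.99, 3.24 and 10.01 CPM against 2.13 and 0 CPM. All 4 matKO libraries lay above both CTR libraries. The log2 difference was 3.56 (SE 1.10, unadjusted p = 0.0135, adjusted p = 0.252), and without matKO replicate 3, the library that stood apart, it was 3.88 (adjusted p = 0.0661, edgeR). Without CTR replicate 2 it was 2.60 (adjusted p = 0.964), and without CTR replicate 1 the CTR group had 0 reads and no fold is given (adjusted p = 0.172).

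Esrrb followed the same order of libraries. It had 231, 183, 51.3 and 71.2 CPM in matKO ExE, against 30.8 and 2.06 CPM in CTR ExE. All 4 matKO libraries again lay above both CTR libraries, with a log2 difference of 3.03 (SE 1.27, adjusted p = 0.391), and 3.30 without matKO replicate 3 (adjusted p = 0.333, edgeR). Without CTR replicate 1 it was 5.93 (adjusted p = 0.271) and without CTR replicate 2 it was 2.14 (adjusted p = 0.964).

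In the remaining members with a value in ExE the groups overlapped. Tfcp2l1 had 49.6, 48.7, 26.2 and 42.7 CPM in matKO ExE, against 53.1 and 38.97 CPM in CTR ExE (log2 −0.16, SE 0.26, adjusted p = 0.818). Its difference was 0.0051 without matKO replicate 3 and 0.0259 without CTR replicate 1, so its sign was not stable. Sall4 had 166, 174, 165 and 149 CPM in matKO ExE, against 188 and 162 CPM in CTR ExE (log2 −0.12, SE 0.13, adjusted p = 0.727). Nanog had 1, 0, 0 and 1 reads in matKO ExE, against 0 and 0 in CTR ExE, and Tbx3 had 0, 0, 2 and 0 against 0 and 1. Zfp42 had 1 read in 1 library of each group, and Prdm14 had 0 in all 6.

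By edgeR 0 of the 4 members with a value were called in ExE, as were 0% of 8386 genes in either direction, though 1161 genes had an unadjusted p under 0.05 and DESeq2 called 210. DESeq2 called 0 of the 4 members too. The groups did not overlap in 2 of the 4 members, against 23.8% of all genes. The median of the 4 was 1.46, against 0.0045 over all genes. Sox2 passed the filter on low counts only through its matKO libraries. A rise of Sox2 was thus favoured in this median and in the count without overlap. For Sox2 the ExE effect minus the morula effect was 5.39 (SE 1.37, adjusted p = 0.129, edgeR), a comparison that shares the morula libraries with the one against oocytes. DESeq2 gave it an adjusted p of 0.0123. Of 11182 genes in that test 0.277% were called higher and 0.0626% lower, and 0 of the 4 members with a value were called by edgeR. Without CTR ExE replicate 1, which leaves a group at 0 reads, or without matKO ExE replicate 3, Sox2 was called there (adjusted p = 0.0438 and 0.039).

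Some trophoblast markers differed between these libraries too, in both directions and none of them called. Those named here are examples from a list that is given as a whole below. Eomes had 348, 284, 168 and 198 CPM in matKO ExE, against 104 and 24.5 CPM in CTR ExE. Id2 had 1865, 1721, 1259 and 1037 CPM in matKO ExE, against 953 and 356 CPM in CTR ExE. Krt8, a keratin of trophoblast epithelium, had 317, 738, 1165 and 1045 CPM in matKO ExE, against 1788 and 1979 CPM in CTR ExE. Within matKO the library with the most Sox2 and Esrrb had the least Krt8. Of the 2 CTR libraries the one with 0 Sox2 reads had less Eomes and Id2. Elf5 stood at 412 to 529 CPM in matKO ExE, against 307 and 383 CPM in CTR ExE.

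The 14 trophectoderm and ExE markers did not lean one way: of 13 tested 7 had a positive and 6 a negative difference, 5 were higher and 5 lower without overlap, and the median was 0.44. Their sum, which rests on a few abundant genes such as Krt8 and Krt18, was 5550 to 7651 CPM in matKO ExE, against 9377 to 9522 CPM in CTR ExE, with Bmp4 at 0 in both. The 10 epiblast markers summed to 629 to 988 CPM in matKO ExE, against 455 to 678 CPM in CTR ExE. Their median was at most 0.50 CPM in any ExE library, so this sum too rests on a few genes. All 4 tested had a positive difference, with a median log2 difference of 1.62 and 0 called. The filter on low counts favours rises of genes near 0 in CTR ExE. Otx2, Tdgf1 and Cer1 were at 0 in all 6 libraries, while Fgf5 and Epha5 had at most 1 read in a matKO library and 0 in CTR. Tdgf1 and Cer1 were also at 0 in all 4 morula libraries, so, as for Pou5f1, their 0 says nothing about the cells. The 11 primitive endoderm markers summed to 115 to 156 CPM in matKO ExE, against 72.5 to 76.6 CPM in CTR ExE. The 10 visceral endoderm markers summed to 8.64 to 30.3 CPM in matKO ExE, against 2.29 to 4.27 CPM in CTR ExE, with Apoa1 and Hnf4a at 0 in all 6. Ttr, Apob, Cubn, Apoe and Foxa2 were at 0 in CTR ExE and had reads in matKO ExE, the most being 19 of Ttr in replicate 1. The 8 decidua markers summed to 0.81 to 23.0 CPM in matKO ExE, against 0.917 to 4.50 CPM in CTR ExE. The part of these markers in the Sox2 and Esrrb values was not tested.

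**Figure D3:**
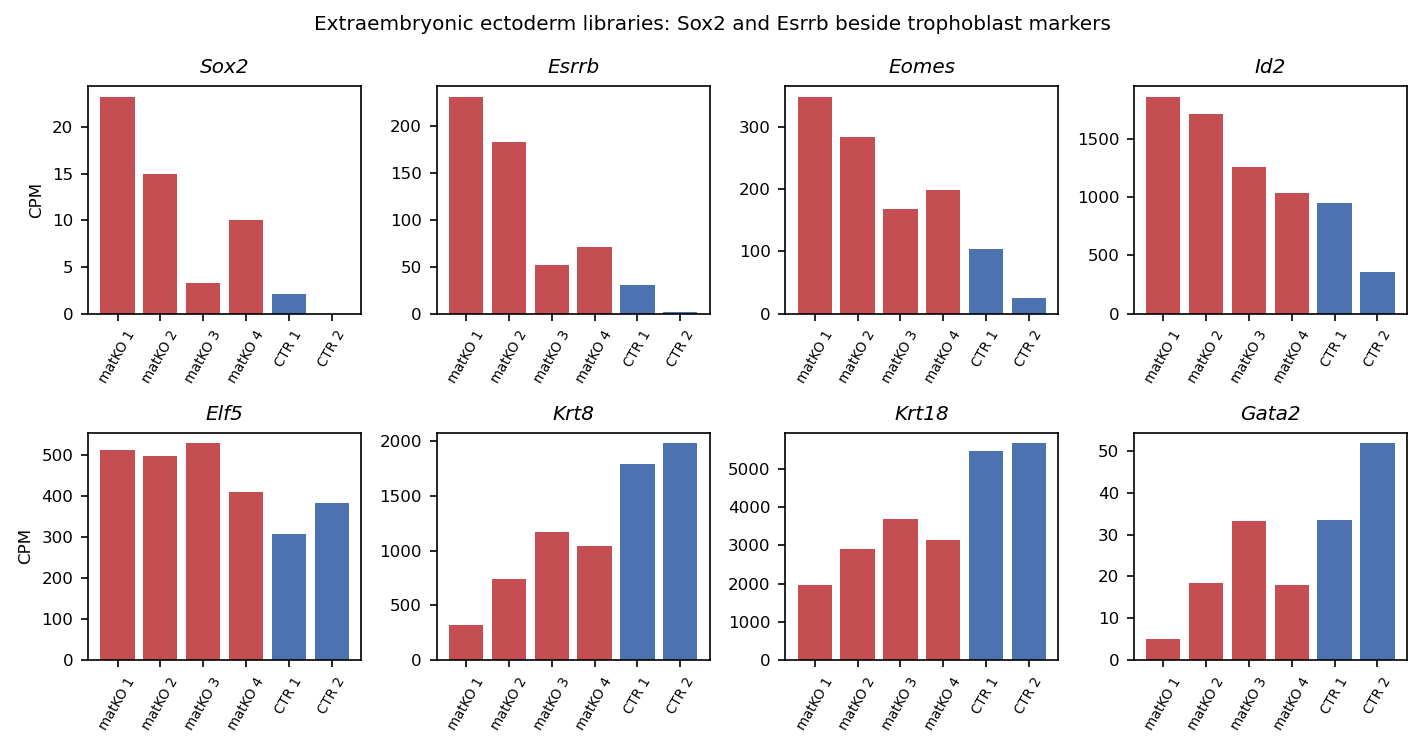
CPM of Sox2, Esrrb and 6 trophoblast markers in each ExE library, matKO in red and CTR in blue. Eomes and Id2 have their highest bars in matKO replicates 1 and 2 as Sox2 and Esrrb do, while Krt8, Krt18 and Gata2 have their lowest bar in matKO replicate 1.

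Both parental copies were read for the members with enough allele-assigned reads to test. In CTR morulae 3 of 5 members with enough reads had a ratio of maternal to paternal reads away from that of the autosomes, in a test that called 25.2% of 7637 genes. Nanog was maternal-leaning, with 63.0% and 59.0% maternal reads (log2 ratio 0.56, SE 0.11, adjusted p = 0.0156, edgeR). Sall4 had 56.1% and 55.7% (0.26, SE 0.07, adjusted p = 0.0401), and Tfcp2l1 had 48.9% and 48.1%, below the autosomes (−0.17, SE 0.04, adjusted p = 0.0213). Esrrb had 54 of 135 and 78 of 189 reads from the mother (adjusted p = 0.0662) and Tbx3 46.8% and 40.9% (adjusted p = 0.151), both not called. Without CTR replicate 1 or 2 the calls of Nanog, Tfcp2l1 and Sall4 were lost (adjusted p = 0.0723 to 0.22), with the same signs, and Esrrb was called without either matKO library (adjusted p = 0.0434 and 0.0439). Mothers were all B6.129 and fathers all PWK, so parent and strain cannot be told apart. The libraries of reciprocal crosses were not analysed here.

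In matKO morulae the shares lay close to these. The maternal share of Nanog was 60.1% and 56.5% in matKO morulae, that of Sall4 56.95% and 52.3%, and that of Tfcp2l1 48.9% and 46.8%. As in CTR the paternal copy gave more Tbx3 reads, with 44.4% and 40.9% maternal in matKO morulae, while Esrrb had 40.8% and 51.2%. The shift of the ratio between matKO and CTR was not called for any of the 5 members, and lay between −0.12 and 0.36 on the log2 scale with SE from 0.05 to 0.29. Over all genes 0.0393% were called in this test. The ratio within matKO, a test chosen after its values were seen, was called in 24.6% of all genes, with Nanog (0.43, adjusted p = 0.0416) and Tfcp2l1 (−0.17, adjusted p = 0.0233) among them. Sox2 had 7 maternal and 2 paternal reads in matKO morulae, against 20 and 23 in CTR morulae, too few for the test.

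In ExE Sall4 was read mostly from the maternal copy outside matKO replicate 3, and the difference from morulae was not tested. Sall4 had 66.6%, 67.4%, 48.7% and 67.1% maternal reads in matKO ExE, against 66.9% and 64.6% in CTR ExE. The one low share was in replicate 3, in which 35.1% of all autosomal reads were maternal. Set against the autosomal ratio of its own library, the log2 ratio of Sall4 was 0.92, 0.97, 0.81 and 0.94 in matKO ExE, against 0.93 and 0.79 in CTR ExE, so replicate 3 fell among the rest. The ratio was called in CTR ExE (0.86, SE 0.11, adjusted p = 1.3e-05), as it was in 27.4% of 7113 genes, and in each leave-out. It was also called in matKO ExE (0.91, SE 0.08, adjusted p = 7.4e-08), as in 39.8% of genes.

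Esrrb was read mostly from the paternal copy in matKO ExE, with 22.4%, 20.4%, 19.5% and 17.8% maternal reads out of 944, 732, 190 and 242. The upper ends of the 95% exact (Clopper-Pearson) intervals were 23.2% to 25.8%. In CTR ExE replicate 1 it had 26.9% of 130 reads (19.5% to 35.4%), and in CTR ExE replicate 2 all 9 reads were maternal (66.4% to 100%). The CTR libraries thus went opposite ways, the second on 9 reads. In matKO ExE the log2 ratio was −1.86 (SE 0.52, adjusted p = 0.0536), just short of the call, and in CTR ExE −0.71 (SE 1.01, adjusted p = 0.686). Without CTR replicate 1 or 2 the CTR ratio was called in opposite directions (adjusted p = 0.0119 and 0.033). In the morula libraries the lower ends of the intervals were 31.7% to 42.2%, and the difference between stages was not tested. Set against its own autosomes the ratio in replicate 3 was −1.16, against −2.30 to −1.87 in the other 3 matKO libraries.

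The Sox2 reads of matKO ExE came from both copies. The maternal share was 53.7%, 58.3%, 50.0% and 70.6% out of 95, 60, 12 and 34 reads, and in CTR ExE 77.8% of 9 reads, with none in the other library. Tfcp2l1 had 40.2% to 59.1% maternal reads in matKO ExE, against 53.6% and 52.4% in CTR ExE, and its lowest share was in replicate 3. The shift between matKO and CTR was not called for Sox2 (−1.05, SE 1.02), Esrrb (−1.15, SE 1.13), Tfcp2l1 (0.19, SE 0.24) or Sall4 (0.05, SE 0.13), with adjusted p from 0.95 to 0.985, where 0.0281% of all genes were called. Without matKO replicate 3 the shift of Esrrb was −1.47 and that of Sall4 0.09, and without CTR replicate 2, the library with 9 Esrrb reads, that of Esrrb was −0.34, all not called.

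**Figure D4:**
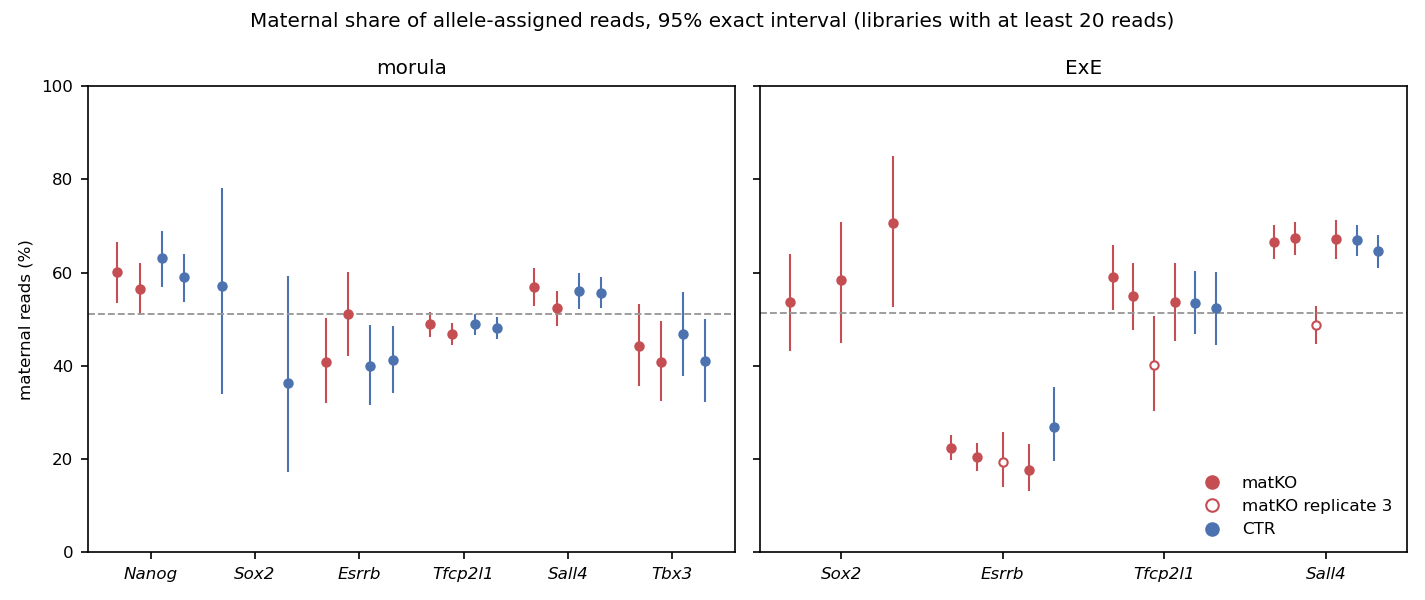
Maternal share of allele-assigned reads with 95% exact intervals, matKO in red and CTR in blue, for libraries with at least 20 reads of the gene; the dashed line is the median autosomal share and the open circle is ExE matKO replicate 3. Esrrb lies between 17.8% and 26.9% in ExE and at 40.8% and 51.2% in matKO morulae, and Sall4 between 64.6% and 67.4% in ExE outside replicate 3.

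Genes around the members were followed in 3 lists: 24 partner factors that act beside them in embryonic stem cells, 23 known targets, and 24 paralogs from their own families. In oocytes 6 of 20 tested partner factors rose and 0 fell, with a median log2 change of 0.48 over the 20, against 0.0039 over all genes, of which 5.35% rose and 1.87% fell. Klf4, a Kruppel-like factor used in reprogramming, had 44.7 and 14.7 CPM in KO oocytes, against 3.38 and 2.26 CPM in CTR oocytes (log2 3.25, adjusted p = 0.0193). Klf5 had 46 counts in KO oocytes, against 1 in CTR oocytes (ratio 57.3, 95% exact counting interval 9.78 to 2312), and Sp5, a target of WNT signalling, had 82 against 2 (ratio 51.1, 13.7 to 429). Tcf7l1, a repressor in the WNT pathway, and Etv5, an ETS factor, rose by log2 2.95 and 1.42 (adjusted p = 0.0345 and 0.0407, edgeR). In each of these genes both KO libraries lay above both CTR libraries, as for Sox2. The calls of Tcf7l1 and Etv5 were lost in each of the 4 leave-outs (adjusted p = 0.053 to 0.201), that of Klf5 without KO replicate 1 (0.0513) and that of Klf4 without CTR replicate 2 (0.0987). DESeq2 did not call Tcf7l1 (0.0836). Sp5 kept its call in each, and without CTR replicate 2 or KO replicate 1 the list had 2 calls.

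Of 14 tested known targets 0 rose and 1 fell in oocytes, with a median of 0.05. The one that fell was Jam2, a junction adhesion molecule, with 26.2 and 16.4 CPM in KO oocytes, against 71.4 and 50.2 CPM in CTR oocytes (log2 −1.63, SE 0.23, adjusted p = 0.00589), and it kept its call in each leave-out. Without KO replicate 1 or 2 the list had 3 and 5 calls. Among the paralogs 4 of 17 rose and 0 fell, with a median of 0.45, also with Pou3f1 at its bound, beside the same 5.35% and 1.87% of all genes. Sall3, a relative of Sall4, had 711 and 334 counts in KO oocytes, against 5 and 13 in CTR oocytes (log2 6.00, SE 0.46, adjusted p = 6.0e-04). Pou3f1, a POU factor of the epiblast and nervous system, had 127 counts in KO oocytes, against 0 in CTR oocytes, at least 52.7-fold higher with a floor of 3 counts over the group. Both kept their call in each leave-out.

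Sox1, a close relative of Sox2, had 21 and 12 counts in KO oocytes, against 1 and 1 in CTR oocytes (ratio 20.55, 95% exact counting interval 5.26 to 177). Prdm1, a germ cell repressor related to Prdm14, had 32.4 and 26.0 CPM in KO oocytes, against 14.6 and 16.9 CPM in CTR oocytes (log2 0.78, SE 0.19, adjusted p = 0.0429). The call of Sox1 was lost without either CTR library (adjusted p = 0.101 each) and with DESeq2 (0.0606), and it did not pass the filter without KO replicate 1. The call of Prdm1 was lost without CTR replicate 1, CTR replicate 2 or KO replicate 1 (0.0847 to 0.298), so the list then had 2 calls. A gene near silent in CTR passes the filter on low counts only where it is higher in KO, so rises are favoured in these counts. The lists were drawn up with earlier results of these data known.

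In morulae 0 of 14 partner factors, 17 targets and 9 paralogs were called, with medians of 0.20, −0.12 and −0.05, against −0.02 over all genes. DESeq2 called 0, 2 and 1. Eomes, a T-box factor of trophoblast, came nearest, with 15 and 16 reads in matKO morulae, against 110 and 95 in CTR morulae (log2 −2.37, SE 0.31, adjusted p = 0.051), and it was called without matKO replicate 1, matKO replicate 2 or CTR replicate 2 (0.00527 to 0.0228). Nr5a2, an orphan nuclear receptor that can stand in for Pou5f1 in reprogramming, had 286 and 260 CPM in matKO morulae, against 177 and 195 CPM in CTR morulae (log2 0.59, SE 0.13, adjusted p = 0.078). Mybl2, a cell cycle factor, had a difference of −0.45 (adjusted p = 0.137), and Fbxo15, an F-box gene, one of 0.49 (adjusted p = 0.0758). Dppa3 (Stella), a maternal factor that guards DNA methylation, had a difference of 0.38 (adjusted p = 0.103) and Sox15 one of 0.49 (adjusted p = 0.0783). Without CTR replicate 2 Fbxo15, Dppa3 and Sox15 were called, and without matKO replicate 2 Nr5a2 was (adjusted p = 0.0097 to 0.0369).

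In ExE 0 of 17 partner factors, 9 targets and 11 paralogs were called, with medians of 0.55, 1.10 and 0.17, against 0.0045 over all genes. DESeq2 called 3, 5 and 1. Of the targets 8 of 9 had a positive difference and of the partner factors 13 of 17. A gene near silent in CTR ExE passes the filter on low counts only where it is higher in matKO. Positive differences are thus favoured in these counts. Fbxo15, which Pou5f1 and Sox2 bind in stem cells, had 86.1, 47.2, 27.6 and 52.4 CPM in matKO ExE, against 16.4 and 6.19 CPM in CTR ExE (log2 2.23, SE 0.53, adjusted p = 0.185). Klf5 had 54.8, 30.5, 24.6 and 27.1 CPM in matKO ExE, against 13.3 and 5.96 CPM in CTR ExE (log2 1.81, SE 0.42, adjusted p = 0.169). Sox21, in the family of Sox2, had 79, 50, 28 and 24 reads in matKO ExE, against 9 and 4 in CTR ExE (log2 2.89, SE 0.58, adjusted p = 0.12).

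Pou3f1 (also on the epiblast list), Dppa4, a chromatin protein of pluripotent cells, and Ncoa3, a coactivator of Esrrb, had differences of 2.76, 1.23 and 0.81 in ExE (adjusted p = 0.255, 0.241 and 0.206). In each of these 6 genes all 4 matKO libraries lay above both CTR libraries, and CTR replicate 2 was the lowest of the 6 libraries, as for Sox2 and Esrrb.

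**Figure D5:**
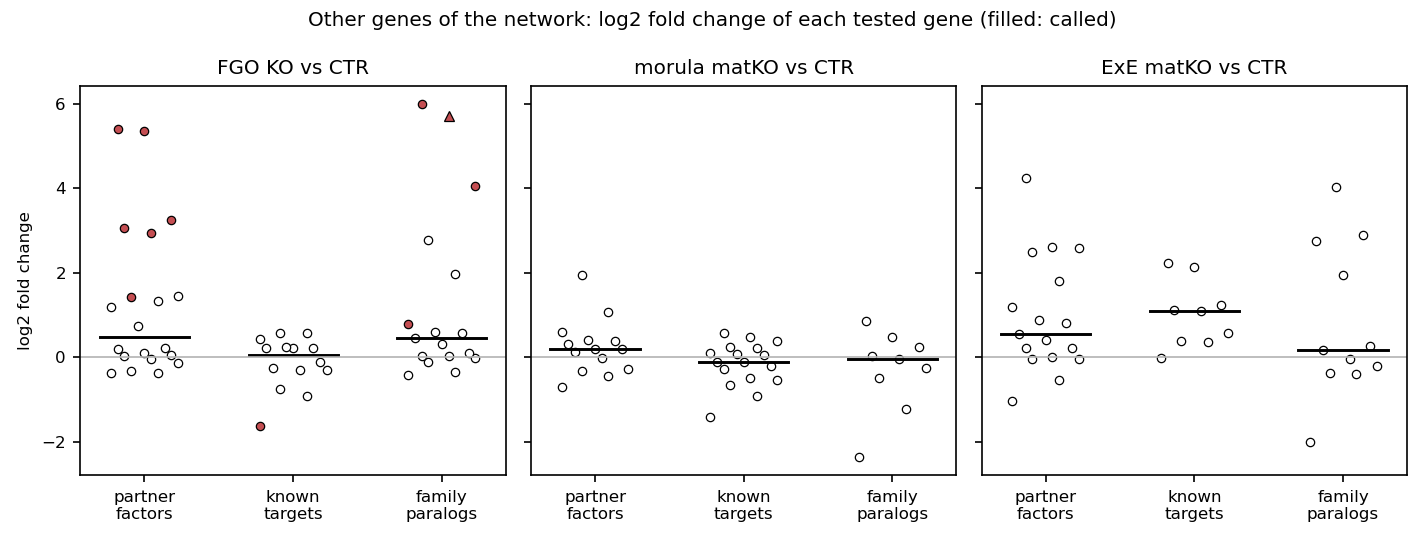
Knockout over CTR as log2 fold change of every tested partner factor, known target and family paralog at the 3 stages, with filled points for calls, a bar at the median and a triangle for a lower bound (Pou3f1). Filled points appear in oocytes only: 6 partner factors and 4 paralogs above 0, and 1 target, Jam2, below.

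Over the 14 libraries, the genes whose log2(CPM + 1) followed Sox2 most closely among 9809 compared were Hs3st3b1, Cpm, Snx24, Zfp260 and Svil, with Pearson r of 0.91, 0.88, 0.87, 0.85 and 0.85. These libraries fall into 3 stages on 2 scales, so r mostly ranks stages. For Pou5f1 the 5 closest were Anks4b, Epb41, Ahctf1, Adtrp and Gnb5, with r of 0.9997 to 0.9999, and all 5 were, like Pou5f1, at 0 in every embryo library.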

How the data were processed

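RNA was measured in 14 libraries of the 18 RNA samples of a series of 58; reciprocal-cross morulae and 40 CUT&RUN samples were left out. The cDNA came from the SMART-Seq v4 kit and the libraries from Nextera XT, per the labels' protocols. The deposited table holds counts per gene, per the file headers: 1 column for each oocyte library, and maternal and paternal columns for each embryo library, 24 in all. The submitters' processing notes name STAR 2.7.3, RSEM 1.3.1 and build mm10 for the series. How a read's parent was decided is not given there. Maternal and paternal counts were summed for tests of expression, which leaves out reads over no strain variant.

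Each comparison used edgeR 4.0.16 (TMM, filterByExpr, robust quasi-likelihood F test) over all genes, with a call at a Benjamini-Hochberg adjusted p under 0.05. Members needed 10 counts at each stage fitted, except in CTR ExE against CTR morulae, where 10 counts over both groups were enough. Allele ratios were tested in edgeR with a term per library, autosomal allele totals as offsets and a mean of 20 reads. The code was tested on simulated data. DESeq2 1.42.0, other scaling, other filters, a replicate block and each library left out were alternatives; where 1 library was left in a group, it was assumed to vary like the others. Exact intervals used SciPy 1.17.1; intervals and floors cover counting error only. Symbols were matched to GRCm38.p6, 23975 by symbol and 82 by synonym.

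Members and lists were chosen with earlier results of these data known. Named from the lists were called genes, up to 6 per comparison, or the 2 with the smallest p, and for Sox2 and Pou5f1 the 5 most alike genes above a mean of 5 CPM. One list gene that the rule would name is not reported here.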

Additional observations from a re-analysis of the deposited data

Results flagged for a closer look

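ExE matKO replicate 3 had an autosomal maternal share of 35.13%, far from the other 3 matKO libraries at 51.25% to 51.53%. In the same library Sall4 had a maternal share of 48.69%, against 66.62% to 67.43% in the other 3. Among the 9 sets of 4 libraries checked for such a gap 2 stood out, and chance gives about 1 in 20. The effect of the knockout on Sox2 differed between morulae and oocytes by −5.30 (log2, adjusted p = 0.0118, edgeR's test of the difference), a pattern known before the test was chosen.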

How the results depend on the processing

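No alternative turned the sign of Sox2 in a comparison of levels. Signs turned only for values that were not called as reported. Without the filter Klf4 lost its call in oocytes (adjusted p = 0.103) and Eomes, Nr5a2, Fbxo15, Dppa3 and Sox15 gained one in morulae; these settings for the lists were chosen after seeing the data. With all-gene totals Sall4 lost its call in CTR morulae (adjusted p = 0.0573). Counts of genes called in oocytes, 972 as reported, were 1630 without the filter and 767 to 2029 over leave-outs, in which 0 to 1 members were called. For morulae (12) they were 54 with DESeq2's size factors (15 higher, 39 lower, against 2 and 10), 199 with DESeq2, 489 without the filter, 68 on paternal reads and 7 to 524 over leave-outs. For ExE (0) they were 210 with DESeq2, 112 without the filter, 5 on maternal reads and 0 to 6 over leave-outs. For morulae minus oocytes (386) they were 660, 791 and 124 to 558, with 0 to 1 members, and for ExE minus morulae (38) 181, 238 and 1 to 74, with 1 member by DESeq2 and 0 to 1 over leave-outs. DESeq2's size factors put the median of all genes in morulae minus oocytes at 0.0757 in place of −0.0725, and Sox2 at −5.13. In CTR ExE against CTR morulae 3 to 6 members were called over leave-outs. Allelic shifts (3 genes in morulae, 2 in ExE) were 19 and 4 at a mean of 5 reads, 1 and 5 on autosomal genes only, a choice made after seeing the data, and 0 to 3 and 1 to 11 over leave-outs. In morulae Esrrb was 0.16 on maternal reads, and over leave-outs Nanog was −0.15 to 0.44, Esrrb −0.31 to 0.29, Tfcp2l1 −0.11 to 0.26 and Sall4 −0.11 to 0.34. Turns at single leave-outs there were −0.10 for Nanog and −0.04 for Sall4. Tfcp2l1 in ExE was −0.33 to 0.0259, and Esrrb in morulae minus oocytes −0.0438 to 0.60. Allelic shifts over leave-outs were −0.0461 to 0.0464 for Tfcp2l1 (0.017 with all-gene totals), −0.15 to 0.086 for Sall4 and −0.21 to 0.14 for Tbx3 in morulae, and −0.0212 to 0.13 for Sall4 in ExE. The ratio of Esrrb in CTR ExE was −1.52 to 6.00 over leave-outs, the highest on 9 maternal reads and 0 paternal ones. The cause of these moves was not tested. The few Sox2 reads in morulae and CTR ExE limit every value of that gene.

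The labels do not say whether libraries with the same replicate number shared an animal or a day. Deviations of same-numbered libraries correlated at 0.28 in oocytes, 0.16 in morulae and 0.26 in ExE over 2 pairs each. With the replicate block 2021 genes were called in oocytes, 310 in morulae and 923 in ExE, 668 in morulae minus oocytes and 550 in ExE minus morulae. ExE matKO replicates 3 and 4 have no CTR library of the same number. With the block the ExE effect thus rests on replicates 1 and 2 of each group, without the library that stood apart, and not on all ExE libraries. The block called 1 member in ExE and 1 in ExE minus morulae, Sox2 in both (log2 4.24 and 6.12, adjusted p = 0.00106 and 8.2e-04), and put Tfcp2l1 in ExE at 0.0835. It called 10, 3 and 7 partner factors, targets and paralogs in oocytes, 1, 2 and 2 in morulae and 6, 6 and 4 in ExE.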
